A study of Rattus norvegicus with 22 samples.

Results

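The genes described here mark the cholinergic motor neuron (MN): Slc18a3, which codes for the vesicular acetylcholine transporter (VAChT), Calca and Calcb, which code for the calcitonin gene-related peptides (CGRP), and Sncg, which codes for gamma-synuclein. They were chosen with their level in MNs against interneurons already known, and every probe set that the annotation of the Affymetrix RN_U34 array gives to them was taken, each apart. That gave 3 of the 643 genes with a probe set of their own, by 4 of 1050 probe sets: U09211_at and X80395cds_s_at for Slc18a3, M11596_at for Calcb and X86789_at for Sncg. No probe set was named for Calca in that annotation, so CGRP is represented by Calcb.

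The arrays carried RNA, amplified in 2 rounds, from neurons cut by laser out of frozen sections of the upper lumbar spinal cord of neonatal Wistar rats (postnatal day 0 to 4), with 1 animal per array. MNs (7 arrays, 55 to 250 cells each) had taken up rhodamine dextran from their cut ventral roots, and descending commissural interneurons (dCINs, 7 arrays, 50 to 100 cells each) from a cut through the cord below the segment sampled. MIX samples (8 arrays, 95 to 187 cells each) were cells taken at random from the ventral horn, and their make-up by cell type is not known. The rats had been anaesthetized with isoflurane, the cords of traced samples were kept for about 3 hours in oxygenated Ringer's solution, and the dye reaches any neuron whose axon was cut at its place of application. The question of the design was which transcripts separate the output neurons of the cord from interneurons that join its left and right sides.

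Motor neurons release acetylcholine onto muscle. Choline acetyltransferase makes the transmitter and VAChT loads it into synaptic vesicles, and the gene of VAChT lies within that of choline acetyltransferase. CGRP is a peptide that spinal motor neurons release together with acetylcholine, and gamma-synuclein is a small soluble protein of neurons and their axons. Calca and Calcb are neighbours on rat chromosome 1 with 0 coding genes between them, and Slc18a3 overlaps Chat on chromosome 16. Sncg lies on the same chromosome with 26 coding genes between it and Slc18a3.

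The promoters of the 2 genes on chromosome 16 are shown because both were higher in MNs than in dCINs. Each run holds 250 bases before and 50 bases after the start of the gene, 5′ to 3′ on the gene's own strand, from RefSeq on the GRCr8 build. Capitals mark exact matches, on either strand, to the GC box GGGCGG and to CAGCTG, a form of the E-box. Other forms of the E-box were not searched. The Slc18a3 window is chr16:7722765-7723064 and the Sncg window chr16:9711287-9711586, both on the minus strand.
Slc18a3: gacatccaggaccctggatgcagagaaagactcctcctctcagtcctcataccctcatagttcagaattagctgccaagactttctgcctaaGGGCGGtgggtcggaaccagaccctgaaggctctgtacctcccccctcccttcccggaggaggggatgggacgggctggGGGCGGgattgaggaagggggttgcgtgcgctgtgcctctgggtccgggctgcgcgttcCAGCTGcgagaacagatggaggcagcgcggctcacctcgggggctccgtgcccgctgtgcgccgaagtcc
Sncg: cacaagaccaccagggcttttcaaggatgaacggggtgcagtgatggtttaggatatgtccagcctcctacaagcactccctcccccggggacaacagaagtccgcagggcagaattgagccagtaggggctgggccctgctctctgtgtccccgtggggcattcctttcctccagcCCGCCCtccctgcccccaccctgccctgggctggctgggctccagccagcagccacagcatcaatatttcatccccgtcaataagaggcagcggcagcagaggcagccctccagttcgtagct
The Slc18a3 window held 2 GC boxes and 1 CAGCTG, and the Sncg window held 1 GC box and 0 CAGCTG. The GC box stood in 33.1% of 33469 promoters of this length and CAGCTG in 15.1%. Neither window held TATAAA (14.2% of promoters), CCAAT (37.5%) or the homeodomain site TAATTA (5.36%). Both windows were richer in G and C than the median promoter, at 64.3% and 61.7% against 51.7%.

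Slc18a3 by U09211_at had the largest fold between MNs and dCINs of the 1050 probe sets. Sncg and Calcb stood in places 2 and 4 by fold among those higher in MNs. For these 3 probe sets the lowest MN array lay above the highest dCIN array. By the other Slc18a3 probe set, X80395cds_s_at, the arrays overlapped and the place by fold was 101. The differences are given as a description with no test, since they led to the choice of these genes. Signals are Li-Wong summaries of probe brightness on a linear scale, folds are ratios of means taken on the log2 scale, and log2 differences are dCINs minus MNs. By the study's methods a common minimum was taken off all summaries, a step that raises such ratios, and with 32 added to every signal the folds of MNs over dCINs were 9.66 for Slc18a3 by U09211_at, 3.17 for Calcb and 4.69 for Sncg. As each sample is a pool of cells, fewer cells that express a gene and less RNA per cell cannot be told apart.

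The signal of the first Slc18a3 probe set, U09211_at, ran in MNs from 2692 to 5211 with a median of 4020. In dCINs it ran from 55.8 to 1133 with a median of 390. The dCIN and MN arrays did not overlap, and the lowest MN array stood 2.37-fold above the highest dCIN array. The means were 4040 ± 927 (SD, n = 7) in MNs and 566 ± 457 (SD, n = 7) in dCINs, a log2 difference of -3.47 (SE 0.60) and a fold of 11.1. In MIX samples the signal ran from 1672 to 3801 with a median of 2704 and a mean of 2557 ± 709 (SD, n = 8). All 8 MIX arrays thus lay above all 7 dCIN arrays, and 4 of the 8 lay above the lowest MN array. The share of all probe sets that separate MIX from dCIN arrays in this way was not counted. The levels were ordered dCIN, MIX, MN, and MIX and MN arrays overlapped.

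The dCINs were far from uniform in VAChT signal by U09211_at. The dCIN arrays 1, 2 and 6 gave 1133, 1104 and 839, arrays 5 and 7 gave 390 and 345, and arrays 3 and 4 gave 55.8 and 92.1. This was a 20.3-fold range, against a 1.94-fold range among MNs and a 2.27-fold range among MIX arrays. The SD of the log2 signal over the 7 dCIN arrays was 1.73, the largest of all 1050 probe sets in that group, where the median probe set had an SD of 0.26. Among MNs the SD was 0.35 and ranked 376 of 1050. The other Slc18a3 probe set, X80395cds_s_at, varied little over the 7 dCIN arrays, with a 1.26-fold range and an SD of 0.12 (rank 996 of 1050). In dCIN arrays 3 and 4 the median signal over all probe sets was 47.6 and 48.6. With arrays 3 to 7 of each group, a set chosen by number, the fold of MNs over dCINs by U09211_at was 19.9 (log2 difference -4.32, SE 0.60, n = 5 and 5). This set leaves out the 2 highest dCIN arrays (1133 and 1104) and the 2 lowest MN arrays (2692 and 3003). The fold therefore had to rise.

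**Figure D1:**
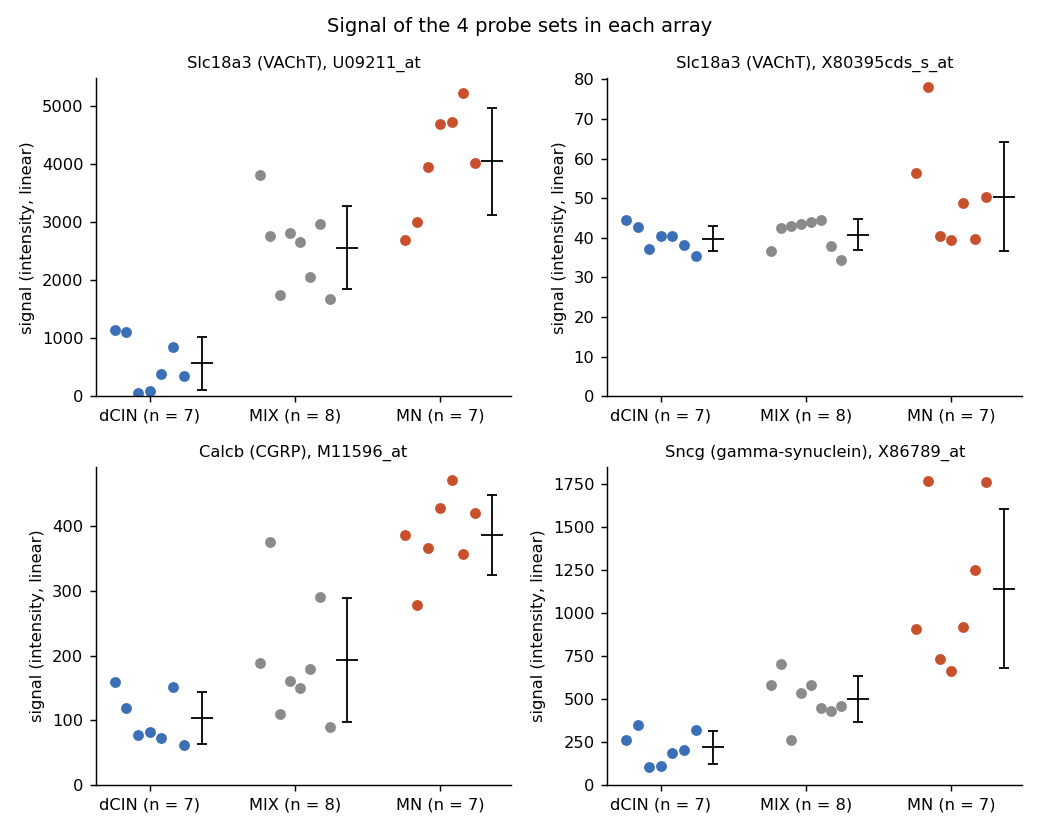
Linear signal of the 4 probe sets in each dCIN, MIX and MN array (points), with the mean and SD of each group (bars). For U09211_at, M11596_at and X86789_at every MN point lies above every dCIN point, while the signals of X80395cds_s_at stay between 34.3 and 78.0 in all groups.

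The other Slc18a3 probe set, X80395cds_s_at, did not show this separation. Its signal ran from 39.4 to 78.0 in MNs (median 48.7), from 35.3 to 44.4 in dCINs (median 40.4) and from 34.3 to 44.6 in MIX samples (median 42.7). The groups overlapped, with 4 of 7 MN arrays above the highest dCIN array. The means were 50.4 ± 13.8 (SD, n = 7) in MNs, 39.8 ± 3.18 (SD, n = 7) in dCINs and 40.8 ± 3.90 (SD, n = 8) in MIX samples, and the log2 difference was -0.30 (SE 0.14). These means lay near the array medians over all probe sets, which ran from 43.5 to 50.9. Whether this probe set stood above background was not tested. The 2 highest MN arrays were numbers 1 and 2, at 56.3 and 78.0, which were the lowest of the MN arrays for U09211_at, at 2692 and 3003. Where the 2 probe sets lie in the transcript was not analysed here. Probe sets of the same gene also differed for other genes of MNs and interneurons. The log2 difference was -1.28 and -0.28 for the brighter and the dimmer probe set of the neurofilament gene Nefh, -1.20 and -0.37 for Nefl, and 2.40 and 0.09 for the vesicular GABA transporter gene Slc32a1. For the neurotrophin receptor gene Ngfr the order was turned, -0.38 for the brighter and -2.17 for the dimmer probe set, and for Apoe both gave similar values, 0.69 and 0.79.

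Calcb, the gene of beta-CGRP, was 3.93-fold higher in MNs than in dCINs. Its signal ran from 278 to 471 in MNs (median 386) and from 62.3 to 160 in dCINs (median 82.2). No dCIN array reached the MN range, and the lowest MN array stood 1.74-fold above the highest dCIN array. The means were 387 ± 62.1 (SD, n = 7) and 103 ± 39.9 (SD, n = 7), a log2 difference of -1.98 (SE 0.21). In MIX samples the signal ran from 89.6 to 376 (median 170, mean 193 ± 95.4, SD, n = 8), a 4.20-fold range that was wider than in MNs (1.69-fold) and dCINs (2.56-fold). MIX arrays 2 and 7, at 376 and 290, reached into the MN range, whereas arrays 3, 5 and 8, at 110, 149 and 89.6, lay within that of dCINs. Levels were ordered dCIN, MIX, MN, with overlap of MIX with both neighbours.

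Sncg was 5.34-fold higher in MNs than in dCINs. Its signal ran from 664 to 1767 in MNs (median 919) and from 106 to 347 in dCINs (median 201), without overlap and with a gap of 1.91-fold. The means were 1143 ± 464 (SD, n = 7) and 219 ± 95.5 (SD, n = 7), a log2 difference of -2.42 (SE 0.31). In MIX samples it ran from 260 to 705 (median 496, mean 500 ± 133, SD, n = 8). MIX arrays lay between the other groups with little overlap, 7 of 8 above the highest dCIN array and 1 of 8 above the lowest MN array. Within MNs, arrays 2 and 7, at 1767 and 1762, stood well above array 4, at 664, and the range was 2.66-fold. Array 4 was not low for Slc18a3 (4685) or Calcb (428), so the MN arrays were not ranked alike by the 3 genes.

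**Figure D2:**
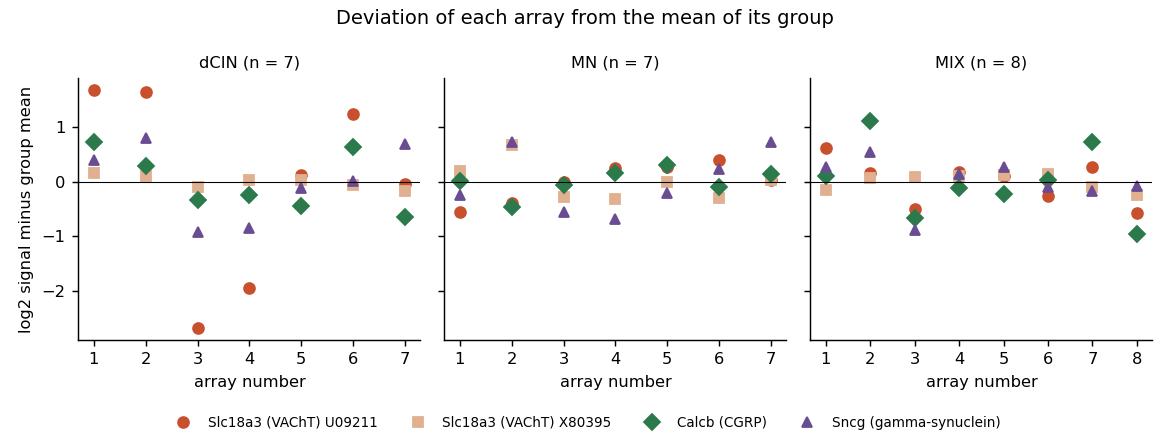
Log2 signal of each array minus the mean of its group, for the 4 probe sets in dCINs, MNs and MIX samples (1 point per array and probe set). The Slc18a3 points of the dCIN panel, from U09211_at, spread most widely (SD 1.73), with arrays 1, 2 and 6 high and arrays 3 and 4 low.

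Across all probe sets, 3.81% of 1050 were called differentially expressed between dCINs and MNs by limma at an adjusted p under 0.1, 1.43% with the higher signal in MNs and 2.38% with the higher signal in dCINs. The arrays of the 2 groups did not overlap for 1.62% of probe sets, and for 0.762% every MN array lay above every dCIN array. Of the 4 member probe sets, 3 were called and had every MN array above every dCIN array, which follows from how the genes were chosen. The median log2 difference of all probe sets was -0.03.

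The place of the MIX samples between the other 2 groups differed from gene to gene. On a scale on which the dCIN mean is 0 and the MN mean is 1, with linear signals, Slc18a3 (U09211_at) stood at a median of 0.615 over the 8 MIX arrays, with a range from 0.319 to 0.931. Sncg stood at a median of 0.299 (0.045 to 0.526) and Calcb at 0.235 (-0.049 to 0.962). Slc18a3 was nearer to the MN mean than Sncg in 8 of 8 MIX arrays, and nearer than Calcb in 7 of 8. The exception was array 2, where Calcb stood at 0.962 and Slc18a3 at 0.631. Calcb and Sncg had no common order, with Calcb nearer to the MN mean in 3 of 8 arrays. On the log2 scale the medians were 0.843, 0.541 and 0.407, and the counts for Slc18a3 were the same. These places use the dCIN and MN means for which the genes were chosen, and they were not tested.

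In terms of differences, Slc18a3 by U09211_at showed the largest rise of all probe sets from dCINs to MIX samples. Its log2 difference of MIX minus dCIN was 2.80 (SE 0.49). It ranked 16 by the excess of MNs over MIX samples, with a log2 difference of MIX minus MN of -0.67 (SE 0.49). Sncg and Calcb held places 1 and 2 by that excess, at -1.15 (SE 0.28) and -1.13 (SE 0.26). From dCINs to MIX samples they rose by less than Slc18a3, by 1.27 (SE 0.28) and 0.85 (SE 0.26). The comparisons share arrays, so these ranks are not independent of each other.

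**Figure D3:**
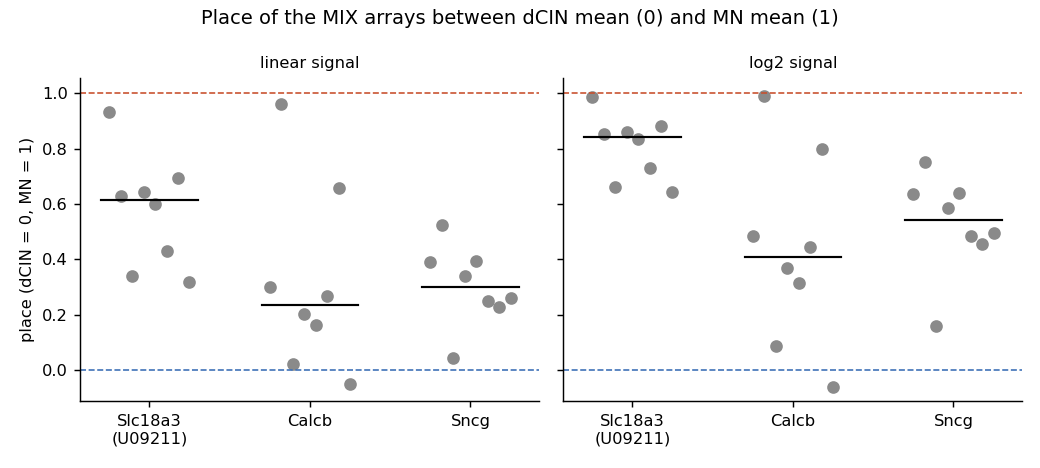
Place of each of the 8 MIX arrays (points; line, median) on a scale from the dCIN mean (0) to the MN mean (1), for linear signals (left) and log2 signals (right). Slc18a3 has the highest median on both scales, 0.615 and 0.843, and Calcb has the widest spread.

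Whether the genes rise and fall together among arrays of the same group had no known part in their choice and could be tested. The size of that variation may have had a part, since the study ranked genes by differences set against their spread. Over the 6 pairs of probe sets in each of the 3 groups, 0 of 18 correlations of log2 signals passed an adjusted p under 0.05 (exact permutation tests, two-sided). The highest was that of Slc18a3 with Sncg in dCINs, r = 0.847 (rho = 0.714, exact p = 0.020 and 0.088, adjusted p = 0.350 and 0.357, n = 7), and it fell to 0.225 without the 2 arrays farthest from the median of Slc18a3. Slc18a3 with Calcb in dCINs gave r = 0.672 (rho = 0.679, exact p = 0.114 and 0.110, adjusted p = 0.350 and 0.357, n = 7). In MNs the 2 probe sets of Slc18a3 ran in opposite directions, r = -0.764 (rho = -0.714, exact p = 0.040 and 0.088, adjusted p = 0.350 and 0.357, n = 7), and r was -0.331 without 2 arrays. X80395cds_s_at lay near the array medians, and whether its variation follows VAChT was not tested. In MIX samples Slc18a3 gave r = 0.654 with Calcb (rho = 0.738, exact p = 0.076 and 0.046, adjusted p = 0.350 and 0.357, n = 8) and 0.631 with Sncg (rho = 0.310, exact p = 0.088 and 0.462, adjusted p = 0.350 and 0.746, n = 8). With 7 or 8 arrays a correlation of moderate size could not be told from 0.

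Within MIX samples VAChT by U09211_at ran with the heavy neurofilament gene Nefh, a structural gene of thick axons. In the other groups this pair did not pass, with r = -0.661 (rho = -0.643, n = 7) in MNs and r = 0.256 (rho = -0.143, n = 7) in dCINs. Slc18a3 (U09211_at) was highest in MIX array 1 (3801), where Nefh was also highest (3066), and low in arrays 3 and 8 (1746 and 1672), where Nefh was lowest (1606 and 1738). Over the 8 arrays r was 0.924 (exact p = 0.002, adjusted p = 0.0342 over 20 pairs of member and partner gene), and 0.809 without the 2 arrays farthest from the median of Slc18a3. The rank correlation was 0.810 (exact p = 0.022, adjusted p = 0.279). Leaving out any 1 array kept r between 0.881 and 0.961, but the adjusted p passed 0.05 without array 1, 2, 3, 6, 7 or 8 (0.153, 0.111, 0.125, 0.111, 0.115 and 0.143). After quantile normalization the same correlation was 0.757 (exact permutation, adjusted p = 0.157), and Sncg with Nefh was then the pair that passed (r = 0.930, exact permutation, adjusted p = 0.0208), against r = 0.658 and an adjusted p of 0.458 by exact permutation on the deposited scale.

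Calcb varied in MIX samples most closely with the light neurofilament gene Nefl, r = 0.855 (rho = 0.786, exact p = 0.009 and 0.028, adjusted p = 0.089 and 0.279, n = 8). MIX arrays 7 and 2 had the highest Nefl signals (4136 and 3540) and the highest Calcb signals (290 and 376). None of the 8 correlations of the members with Slc32a1, the vesicular GABA transporter of inhibitory neurons, or Apoe, an abundant lipid carrier of astrocytes, passed the test in MIX samples. On the deposited scale 8 of 8 were below 0, but they share the same arrays and are not independent. After quantile normalization X80395cds_s_at with Apoe gave r = 0.176. For Slc18a3 (U09211_at) the deposited-scale correlations with Slc32a1 and Apoe were -0.524 (rho = -0.500, exact p = 0.185 and 0.216, adjusted p = 0.528 and 0.694) and -0.252 (rho = -0.167, exact p = 0.551 and 0.703, adjusted p = 0.772 and 0.879).

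**Figure D4:**
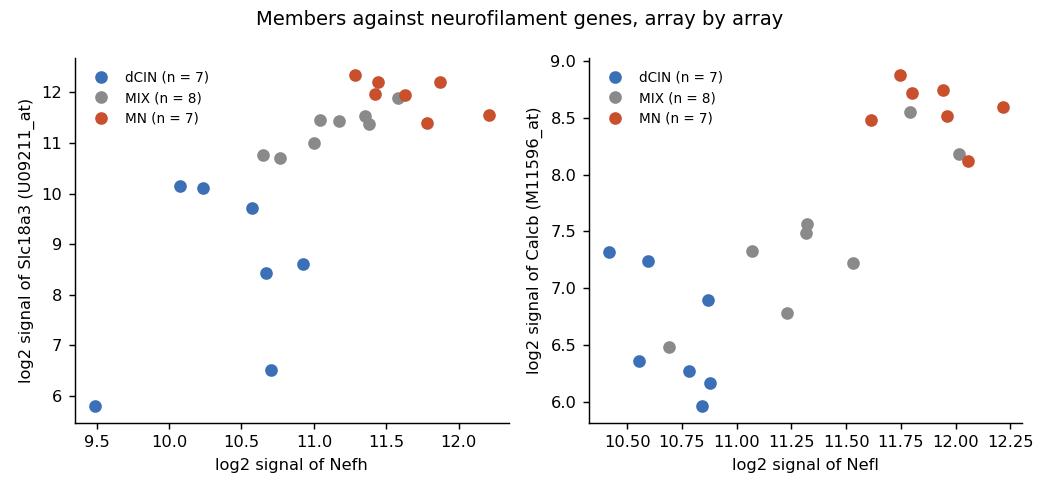
Log2 signal of Slc18a3 against Nefh (left) and of Calcb against Nefl (right) in each dCIN, MIX and MN array. Within the 8 MIX arrays r was 0.924 on the left and 0.855 on the right.

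The same partner tests were run within MNs and within dCINs after the MIX values had been seen. In dCINs 0 of 20 pairs passed by exact permutation. In MNs 2 of 20 did, narrowly. Slc18a3 (U09211_at) ran against Nefl, r = -0.893 (rho = -0.964, exact p = 0.005 and 0.003, adjusted p = 0.0496 and 0.0556, n = 7), and r was -0.666 without 2 arrays. The other Slc18a3 probe set, near the array medians, ran with Ngfr, the low-affinity neurotrophin receptor gene, by the probe set U25650_f_at, r = 0.928 (rho = 0.786, exact p = 0.004 and 0.048, adjusted p = 0.0496 and 0.397, n = 7), and r was 0.708 without 2 arrays. Each time 1 MN array was left out, 0 or 1 of the 20 pairs passed: 0 without array 1, 2, 3, 5 or 7 and 1 without array 4 or 6. In MN arrays 1 and 2, which held 250 and 230 cells, Slc18a3 was lowest and Nefl highest (4755 and 4263).

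The number of cells gave no correlation that passed the test, over 12 combinations of probe set and group. The largest was that of Slc18a3 (U09211_at) in MNs, r = -0.734 (rho = -0.464, exact p = 0.063 and 0.302, adjusted p = 0.366 and 0.840, n = 7). It turned to 0.623 without the 2 arrays whose cell numbers lay farthest from the median. Without the MN samples of over 200 cells the log2 difference of Slc18a3 was -3.66 (SE 0.68), and with the number of cells in the fit it was -3.46 (SE 0.71).

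The probe sets whose pattern over the 22 arrays was most like that of the members were in part other motor neuron markers. This likeness is Pearson's r of log2 signals over all arrays. It includes the differences between the group levels and carries no test. For Slc18a3 (U09211_at) the 5 nearest were Ngfr by X05137_at (0.739), Nefh (0.739), Nefl (0.700), the synapsin gene Syn2 (0.657) and the unnamed rc_AI072060_s_at (0.648). For Calcb they were Ngfr (0.846), Nefl (0.834), Syn2 (0.752), Nefh (0.710) and the potassium channel gene Kcna1 (0.707). For Sncg they were Ngfr (0.869), Nefh (0.795), Nefl (0.785), Syn2 (0.701) and the brain creatine kinase gene Ckb (0.673). Ngfr by X05137_at, Nefh, Nefl and Syn2 thus stood among the nearest 5 of all 3 genes. These probe sets were higher in MNs, as the members were by choice, so such likeness was built in. With group means removed, none of these probe sets was among the nearest 5. Slc18a3 (U09211_at) then gave 0.180 with Ngfr, 0.229 with Nefh, 0.0006 with Nefl and 0.537 with Syn2. Among themselves the members gave 0.854 for Slc18a3 with Sncg, 0.793 for Slc18a3 with Calcb and 0.799 for Calcb with Sncg. With group means removed these were 0.594, 0.516 and 0.235.

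The dim Slc18a3 probe set, near the array medians, had a different set of neighbours. X80395cds_s_at was nearest to the potassium channel genes Kcnk3 (0.876) and Kcnv1 (0.867), the unnamed M27902_at (0.860), the kinase gene Ptk2b (0.848) and Bcl2l11 (0.831), and gave 0.318 with U09211_at. Of these 5, 0 were called between dCINs and MNs, beside 3.81% of all probe sets, so this count lies near the background. With group means removed, the nearest 5 were the highest of all other probe sets, so high values were bound to appear. They carry no test. The nearest was Cntf for Slc18a3 (0.697), followed by Scn7a, Cngb1, Hsd17b10 and Abat (0.619 to 0.551). For Calcb it was P2rx2 (0.625), followed by M19257_at, Kcnh7, Tf and Tnf (0.571 to 0.473), and for Sncg Hsd17b10 (0.768), followed by Ckb, Sele, Stx3 and a second Kcnk3 probe set (0.680 to 0.597). For X80395cds_s_at it was Itgb7 (0.853), followed by M27902_at, Kcnv1, Kcnk3 and Ptk2b (0.849 to 0.827). Several of these neighbours were dim, with Cntf at means of 28.9 in dCINs and 27.1 in MNs, whereas M19257_at and Ckb were bright (323 and 359 in dCINs).

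Of 8 genes of cholinergic machinery 2 were measured, Slc18a3 and Colq, the collagen tail that anchors acetylcholinesterase. Colq gave 169 ± 108 (SD, n = 7) in MNs and 116 ± 28.4 (SD, n = 7) in dCINs and was not called (log2 difference -0.37, SE 0.30, limma adjusted p = 0.716). Of 21 acetylcholine receptor genes 20 were measured, and 0 were called by limma at an adjusted p under 0.1, with 0 at an unadjusted p under 0.05. Over all 1050 probe sets 3.81% were called and 114 had an unadjusted p under 0.05, so a count of 0 in a list of this size lies near the background. Their median log2 difference was -0.06. The 4 with the smallest p were the muscle nicotinic subunit Chrnd (0.21), the muscarinic receptors Chrm1 (-0.30) and Chrm3 (0.32), and the nicotinic subunit Chrna9 (0.20).

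Of 11 genes of the calcitonin family and its receptors 3 were measured. Calcrl, the receptor through which CGRP acts, gave a log2 difference of -0.07 (SE 0.24) and Calcr, the calcitonin receptor, 0.17 (SE 0.14), and limma called neither (adjusted p = 0.933 and 0.720). Of the 4 genes of the synuclein list Sncg was the 1 measured.

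Of 14 motor neuron markers 7 were measured, 5 of them besides Slc18a3 and Calcb. Of these 5 limma called 2, both higher in MNs, beside 1.43% of all probe sets. Nefh was higher in MNs (3313 ± 767 against 1395 ± 416, SD, n = 7 each, log2 difference -1.28, SE 0.21, adjusted p = 0.00218). Nefl was also higher (3867 ± 545 against 1682 ± 207, SD, n = 7 each, log2 difference -1.20, SE 0.11, adjusted p = 1.9e-05). For both genes every MN array lay above every dCIN array, as for 0.762% of all probe sets. The medium neurofilament gene Nefm (-0.29, SE 0.16), the transcription factor gene Isl2 (-0.26, SE 0.19) and Ngfr by its brighter probe set U25650_f_at (-0.38, SE 0.22) were not called. By its other probe set, X05137_at, Ngfr was called (663 ± 272 in MNs against 139 ± 37.4 in dCINs, SD, n = 7 each, log2 difference -2.17, SE 0.28, adjusted p = 0.000297). Each of these differences was smaller than that of Slc18a3 by U09211_at. The study lists Nefh, Nefl and Ngfr by X05137_at as higher in MNs from these same arrays, so their calls were known beforehand. Chat, Isl1, Mnx1 and Prph were not analysed here.

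Markers of other cells moved with the same contrast in part. Slc32a1, the marker of inhibitory neurons, was higher in dCINs, as were 2.38% of all probe sets (log2 difference 2.40, SE 0.40, limma adjusted p = 0.00266). Its signal ran from 352 to 762 in dCINs, from 35.2 to 366 in MNs and from 187 to 580 in MIX samples. The highest MN array, number 3, thus overlapped with the lowest dCIN array. Of 6 measured astrocyte markers Apoe was higher in dCINs (0.69, SE 0.15, limma adjusted p = 0.0125), and S100b (0.53), Slc1a3 (0.38), Gja1 (0.12), Slc1a2 (0.06) and Gfap (-0.18) were not called. Their summed signal ran from 5283 to 8151 in dCINs, from 3349 to 5836 in MNs and from 3387 to 8524 in MIX samples. Most of that sum was Apoe (mean 6027 in dCINs and 3768 in MNs) and S100b (1103 and 771), so it says little of the other 4 markers. Gfap, the defining filament of astrocytes, was near the array medians at 48.3 in dCINs and 53.9 in MNs. Of 5 measured oligodendrocyte markers 0 were called by limma, with 2 at an unadjusted p under 0.05 (Mog -0.28, Pdgfra 0.83, with Mag 0.06, Mbp 0.05 and Cnp -0.03), beside the 3.81% and the 114 of 1050 over all probe sets. Their sums ran from 477 to 946 in dCINs, from 479 to 770 in MNs and from 391 to 1260 in MIX samples. The 1 measured microglial gene, Itgam, stayed between 14.1 and 19.6 in both groups (log2 difference -0.08, not called). No marker of excitatory interneurons or vessels from the lists was measured. The part of other cells in the levels of the 4 member probe sets was not tested.

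**Figure D5:**
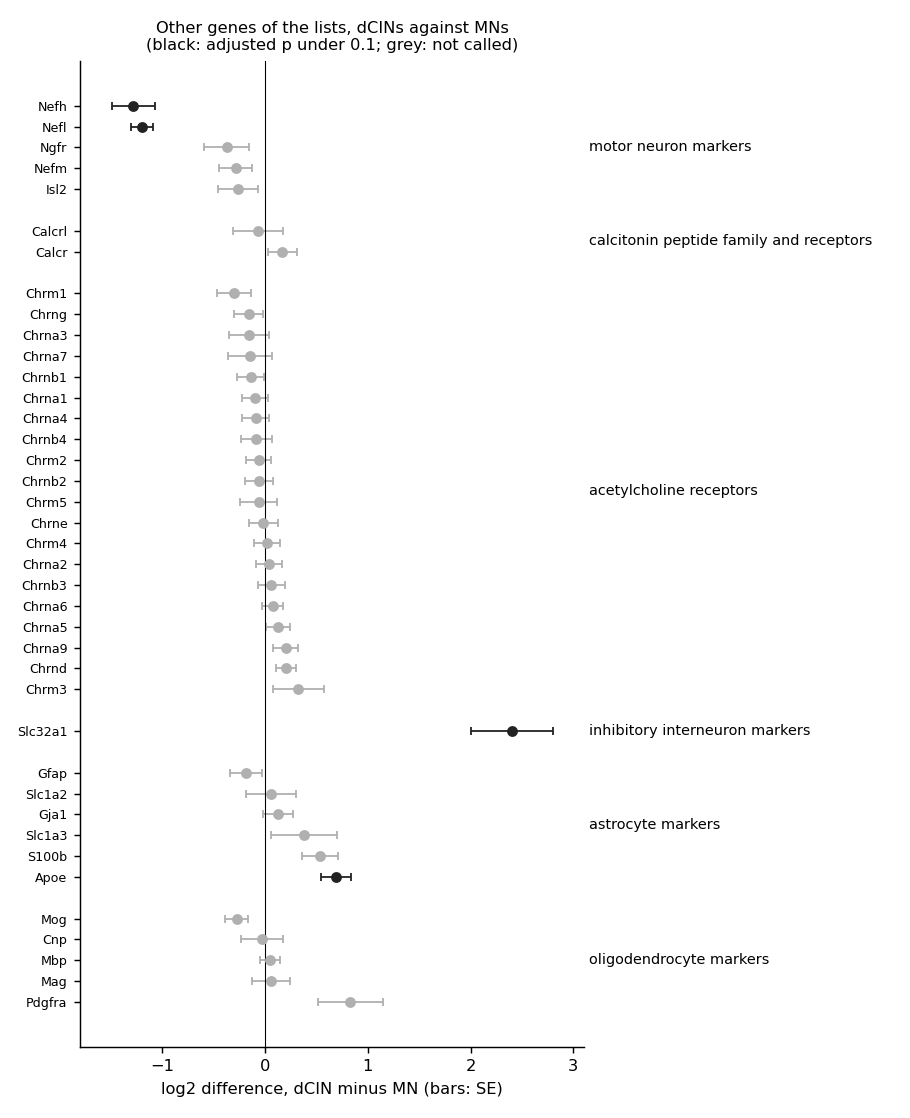
Log2 difference of dCINs minus MNs (points; bars, SE; n = 7 and 7 arrays) for other measured genes of 6 lists, each by its brightest probe set. Black points were called by limma (adjusted p under 0.1), among them Nefh and Nefl at -1.28 and -1.20 and Slc32a1 at 2.40, while the 20 acetylcholine receptor genes stay between -0.30 and 0.32.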

How the data were processed

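RN_U34 arrays of 7 dCIN, 7 MN and 8 MIX samples were analysed, grouped by their titles. The deposited table holds an intensity for each of 1050 probe sets on a linear scale (1 to 8642), which the authors made from perfect match probes by global background subtraction, quantile linear transformation and quantile projection normalization, and Li-Wong summaries. Their methods then subtract the lowest of all summaries from every profile, which raises ratios between samples. The lowest deposited value is 1. Such scaling assumes that all arrays share a common distribution. Array medians ran from 43.5 to 50.9. For arrays the number of samples limits the precision.

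Summaries were log2-transformed. The 14 dCIN and MN arrays entered lmFit and eBayes of limma (version 3.58.1, R 4.3.3), and p-values of the whole table were adjusted after Benjamini-Hochberg, with 0.1 as the limit for a call. MIX differences came from a fit of 3 group means over 22 arrays. Correlations within groups were tested over all pairings of the arrays (exact permutation, two-sided) and adjusted within each family. The code was tested on simulated data. Python 3.11.15, numpy 2.4.6, pandas 2.3.3 and matplotlib 3.10.9 were used.

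Of the probe sets, 961 had 1 symbol in the platform annotation, 7 had several, 5 were named from the study's text and 77 had no name. Promoters came from the RefSeq table (GRCr8), which holds Slc18a3 and Sncg. Named were the 4 member probe sets, of each gene list every measured gene (where over 8 were measured, the called genes and the 4 with the smallest p) by its brightest probe set, the 5 probe sets most like each member, and the partner genes Ngfr, Nefh, Nefl, Slc32a1 and Apoe. The lists were cholinergic machinery, acetylcholine receptors, calcitonin family, synucleins, and markers of motor neurons, inhibitory and excitatory interneurons, astrocytes, oligodendrocytes, microglia and vessels. Other probe sets of genes already named, and a few further values, were added after values were seen. Results for some listed genes are left out of the text and plots. The members and lists were chosen with earlier results of these data known. Alternatives were other scalings, offsets and filters, a block for the array number, array weights, cell number as a covariate, and leaving out arrays.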

Additional observations from a re-analysis of the deposited data

How the results depend on the processing

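Over 23 alternatives the log2 difference of dCINs minus MNs kept its direction for the 4 probe sets. It moved by less than the spread between arrays. For Slc18a3 by U09211_at, Calcb and Sncg every MN array lay above every dCIN array. Leaving out or weighting arrays, or adding an offset, could therefore not turn their direction. The fit with MIX arrays included and the replicate block gave back the main estimate. The kept direction is thus no separate evidence for these genes, which were chosen with this contrast known. The log2 difference ran from -4.32 to -3.02 for Slc18a3 by U09211_at and from -0.36 to -0.13 by X80395cds_s_at. For Calcb it ran from -2.27 to -1.67 and for Sncg from -2.56 to -2.23. With 1 array left out, the ranges were -3.75 to -3.02, -0.36 to -0.19, -2.09 to -1.87 and -2.55 to -2.26. The number of called probe sets, 40, was 76 with array weights, and ran from 31 to 55 with 1 array left out. The array numbers were not taken to pair the samples in the main fit. The deviations of same-numbered dCIN and MN arrays gave r from -0.19 to 0.53, over 0.1 in 5 of 7 pairs. The share of differently numbered pairs over 0.1 was not counted. The MN array of the same number was the best match for 2 of 7 dCIN arrays. Shared handling of same-numbered arrays was not tested. With the number as a replicate block, 55 probe sets were called. The SE of the log2 difference was then 0.12 for Sncg (0.31 without the block), 0.58 for Slc18a3 by U09211_at (0.60) and 0.23 for Calcb (0.21). In MIX samples the correlation of Slc18a3 with Nefh was 0.757 after quantile normalization, and from 0.881 to 0.961 with 1 array left out. Pairs of members and partner genes that passed were then from 0 to 1 within MIX samples and from 0 to 1 within MNs, against 1 and 2 with all arrays. Leaving out single arrays from these correlations, arrays 3 to 8 for the pairs of members, and the partner tests within MNs and dCINs were chosen after seeing the data. The cause of these shifts was not tested. Counts of called genes in the lists stayed the same with every probe set of a gene, except motor neuron markers. There 3 of 8 probe sets were called, beside 3.81% of all probe sets. No count of molecules stands behind these signals, and 7 or 8 arrays per group limit the precision.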
